A study of Homo sapiens with 12 samples.

Results

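The nuclear genes of respiratory complex I were followed across 3 groups of LX2 cells, an established line of human hepatic stellate cells, the liver cells that lay down scar matrix when activated. The members were all genes whose symbol starts with NDUF and whose deposited transcript type includes protein coding. There were 48 of them among 60612 genes. They comprised 7 core subunits, 9 accessory subunits of the peripheral arm, 20 accessory subunits of the membrane arm, the acyl carrier NDUFAB1, 8 assembly factors, the pair NDUFA4 and NDUFA4L2 that lie outside complex I despite their names, and the read-through gene NDUFC2-KCTD14. Another 64 NDUF rows were left out, 61 of them pseudogenes and 3 long non-coding RNAs.

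All cells were seeded and then starved of serum for 16 h, which the controls share. Control cells received nothing more (4 libraries), TGFb cells received 5 ng/ml of the cytokine for 16 h (4 libraries), and STINGX with TGFb cells received 10 µM of the code-named compound STINGX for 3 h ahead of the same cytokine treatment (4 libraries). The series asks what part mitochondrial DNA and STING, an adaptor of the innate response to cytosolic DNA, have in stellate cell activation. STINGX alone was not among the samples analysed here, so every value with the compound is also a value with TGFb. All 12 libraries are polyadenylated RNA of 1 immortalised line, and nothing in the labels says that replicates were separate cultures, so the p-values here speak for the spread among these libraries and that spread may be technical.

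Complex I, or NADH:ubiquinone oxidoreductase, is the largest enzyme of the mitochondrial respiratory chain. Its peripheral arm reaches into the matrix, takes electrons from NADH through a flavin and passes them along iron-sulfur clusters to ubiquinone, and its membrane arm uses the energy to pump protons. The core subunits do this chemistry, the accessory subunits surround and stabilise them, and assembly factors build the arms from modules but are absent from the finished enzyme. The core of the membrane arm is encoded by mitochondrial DNA as the MT-ND genes, so the enzyme needs products of both genomes.

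Between 54035320 and 70787741 counts were assigned per library, and the 48 members together took 102940 to 155659 counts per library. All 48 passed the filter on low counts, which left 21328 genes to test. A list of stellate markers was present in part: COL1A1, COL1A2, COL3A1, PDGFRB, VIM and ACTA2 were detected in all groups, while DES and LRAT had no count in any library. Of 12 markers of other liver cells, the hepatocyte genes ALB and TTR had no count, and APOA1 had 8, 0 and 3 counts summed over the 4 libraries of control, TGFb and STINGX with TGFb. The 3 endothelial markers PECAM1, CDH5 and VWF had 485, 486 and 69 counts in control, 457, 58 and 88 with TGFb and 178, 69 and 27 with STINGX and TGFb, and their summed FPKM was 0.459 to 0.486, 0.236 to 0.335 and 0.0987 to 0.132 per library. The 3 macrophage and leukocyte markers summed to 30.1 to 32.1, 9.23 to 10.9 and 29.4 to 35.6 FPKM in the same order, carried by CD68 and CD14, while PTPRC had 66, 0 and 11 counts. The 3 cholangiocyte markers summed to 2.36 to 3.74, 5.33 to 6.70 and 1.92 to 2.43 FPKM, nearly all of it KRT7, while KRT19 had 39, 0 and 12 counts and EPCAM 4 in each group. The part of these differences in the results below was not tested. In bulk RNA, fewer cells of a type and less RNA per cell cannot be told apart.

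To compare levels between genes, counts were divided by transcript length and scaled to a fixed total per library (TPM), because the deposited FPKM divides by all exons of a gene and so understates genes with many transcripts. On that per-length scale the subunits were the abundant members and the assembly factors the scarce ones. The median gene stood at 96.0 TPM among core subunits, 87.2 among membrane-arm accessory subunits, 55.8 among peripheral-arm accessory subunits and 20.5 among assembly factors, averaged over the 12 libraries. NDUFS5, a small CHCH-domain subunit of the membrane arm, was highest at 381 TPM, followed by the core subunit NDUFV2 at 224 TPM and the membrane-arm subunit NDUFA11 at 210.3 TPM. The lowest were NDUFA4L2 at 2.62 TPM, the read-through NDUFC2-KCTD14 at 4.05 TPM and the assembly factor NDUFAF4 at 8.81 TPM. In the deposited FPKM the highest were NDUFS5 (163), NDUFA1 (88.8) and NDUFS6 (80.8), and the lowest were NDUFA4L2 (0.369), NDUFAF6 (1.31) and NDUFAF5 (1.37). Only 74.3% of the counts of NDUFC1 lay on transcripts of known length, so its TPM is a low estimate. Pseudogenes hardly drew on the family, taking between 0.226% and 0.339% of all NDUF counts per library.

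**Figure D1:**
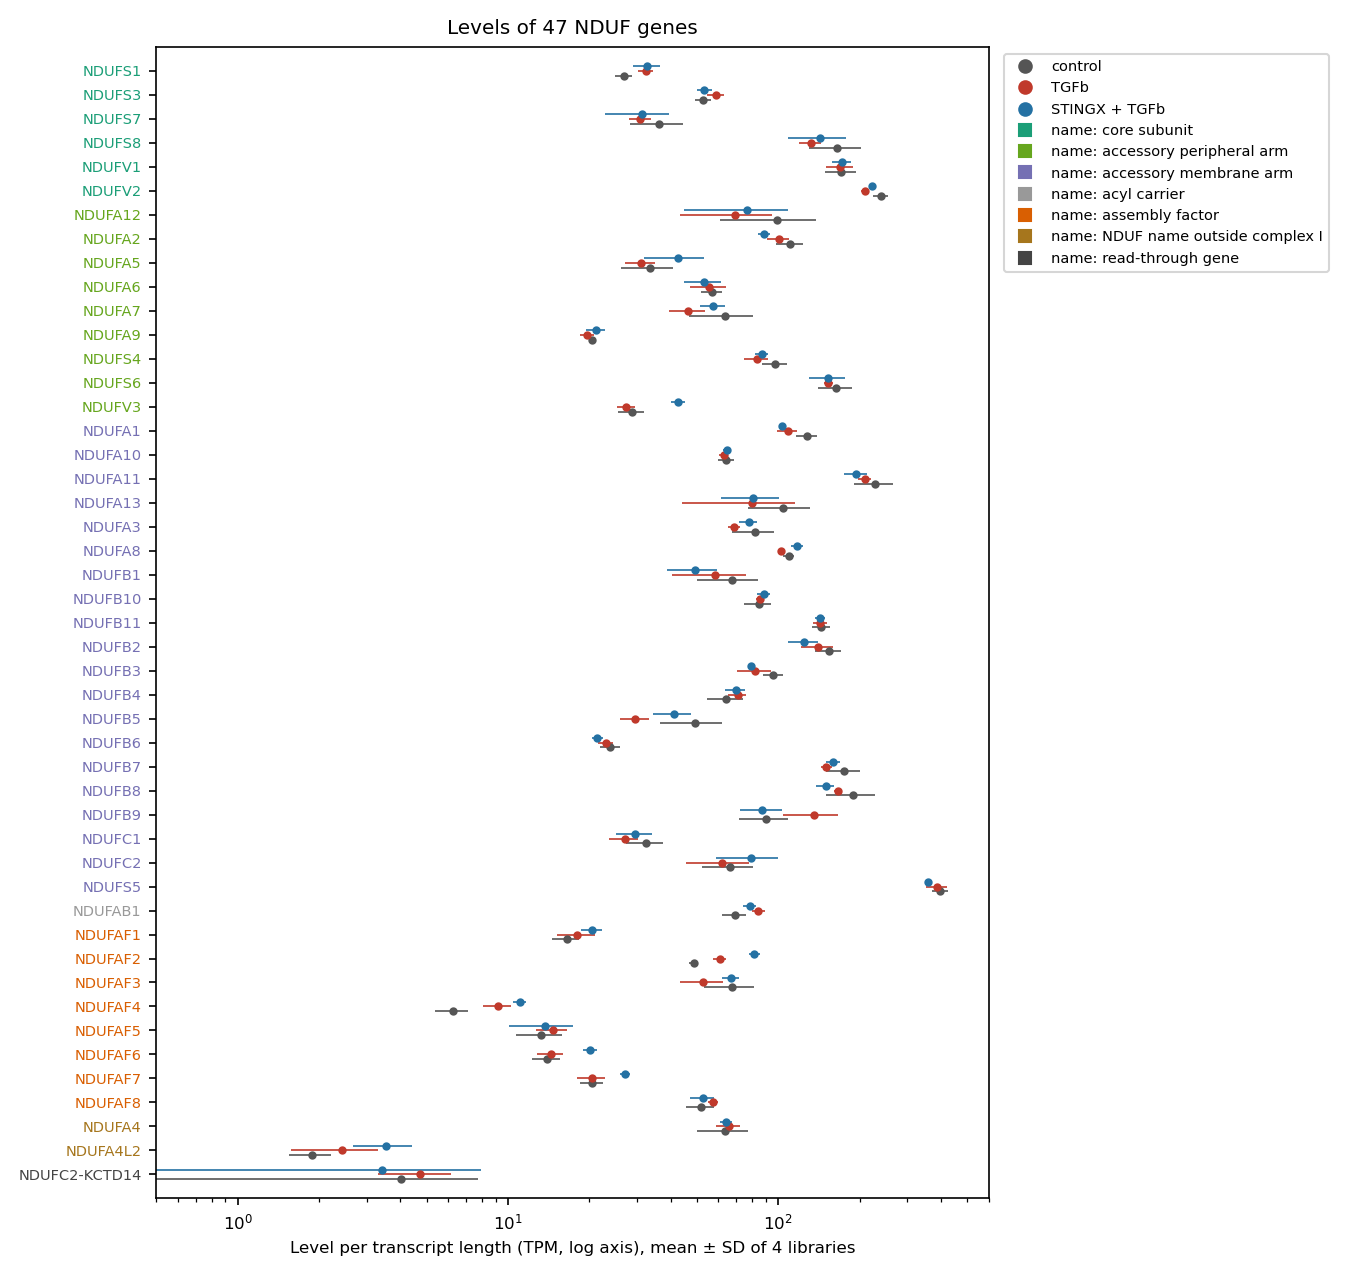
Per-length level of 47 of the 48 genes in TPM on a log axis, as mean ± SD of the 4 libraries of control (grey), TGFb (red) and STINGX with TGFb (blue), with gene names coloured by role. NDUFS5 lies highest at a mean of 381 TPM over all libraries, the 8 assembly factors sit between 8.81 and 63.6 TPM, and for most genes the groups lie close together. Bars of NDUFC2-KCTD14 run off the axis on the left.

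The design gives 3 comparisons of the estimated counts: TGFb against control, STINGX with TGFb against TGFb, and STINGX with TGFb against control. They share samples, so their values are given side by side and not as independent evidence of each other. A gene is said to rise or fall where its adjusted p from edgeR was under 0.05. Changes are log2 differences of CPM, library-scaled counts, with library sizes adjusted by TMM, a method that sets the bulk of genes to no change.

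With TGFb, 2 of the 48 members rose and 7 fell against control, where 26.0% of all genes tested passed (13.2% higher and 12.8% lower). For the members these counts are 4.17% higher and 14.6% lower, near or under the background. Between TGFb and STINGX with TGFb, 2 rose and 9 fell, where 27.5% of all genes passed (13.7% higher and 13.8% lower) against 4.17% and 18.8% of members. Between control and STINGX with TGFb, 3 rose and 20 fell, where 34.2% of all genes passed (17.2% higher and 17.0% lower). In that last comparison 41.7% of members fell. Groups that did not overlap (all 4 libraries of one beyond all 4 of the other) were found for 2 members higher and 4 lower with TGFb, where 27.1% of all genes did so, for 4 higher and 13 lower between the treated groups (31.6%), and for 3 higher and 15 lower between control and STINGX with TGFb (34.5%). The members' median log2 fold change was -0.10, -0.11 and -0.26 in the 3 comparisons in that order, beside medians of 0.00, 0.01 and 0.00 over all genes tested.

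The effect of STINGX on top of TGFb depended on the scaling. With library totals alone in place of TMM, the median of all genes moved to 0.15, and 8 members were called higher and 2 lower with STINGX and TGFb against TGFb. Of all 21328 genes tested, 4997 were then called higher and 1890 lower. The members' median then stood at 0.03 in place of -0.11. Changing the scaling of whole libraries moves all genes by about the same amount, so the distance of 0.12 between the members' median and that of all genes hardly moved by construction. On the log2(FPKM + pseudocount) scale that distance was not kept: the members' median lay 0.03 below that of all genes on log2(FPKM + 1), 0.10 below on log2(FPKM + 0.1), and 0.01 above on log2(FPKM + 1) without a filter on low values. The split was 4 higher and 15 lower for STINGX with TGFb against control, and 2 higher and 13 lower for TGFb against control, on library totals alone. All 21328 genes gave 4683 higher and 2876 lower in the former, and 2224 higher and 3523 lower in the latter. On the per-length scale the summed level of the 48 genes was 4195 ± 304 TPM in control, 3902 ± 104 with TGFb and 3937 ± 83.3 with STINGX and TGFb (SD, n = 4).

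By role, the counts were as follows. Between control and STINGX with TGFb, 20 of the 37 subunits (54.1%) fell and none rose, while 3 of the 8 assembly factors (37.5%) rose and none fell. Of all genes tested, 17.0% fell, 17.2% rose and 34.2% passed either way. The share of assembly factors that passed thus lay near that of all genes. Among subunits that fell were 4 of 7 core, 3 of 9 peripheral-arm and 13 of 20 membrane-arm genes, and all 20 membrane-arm genes had a negative log2 fold change. The difference between roles was not tested. On library totals alone 15 subunits fell and 1 rose, and 3 assembly factors rose. Of all 21328 genes tested, 2876 fell and 4683 rose on that scaling.

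**Figure D2:**
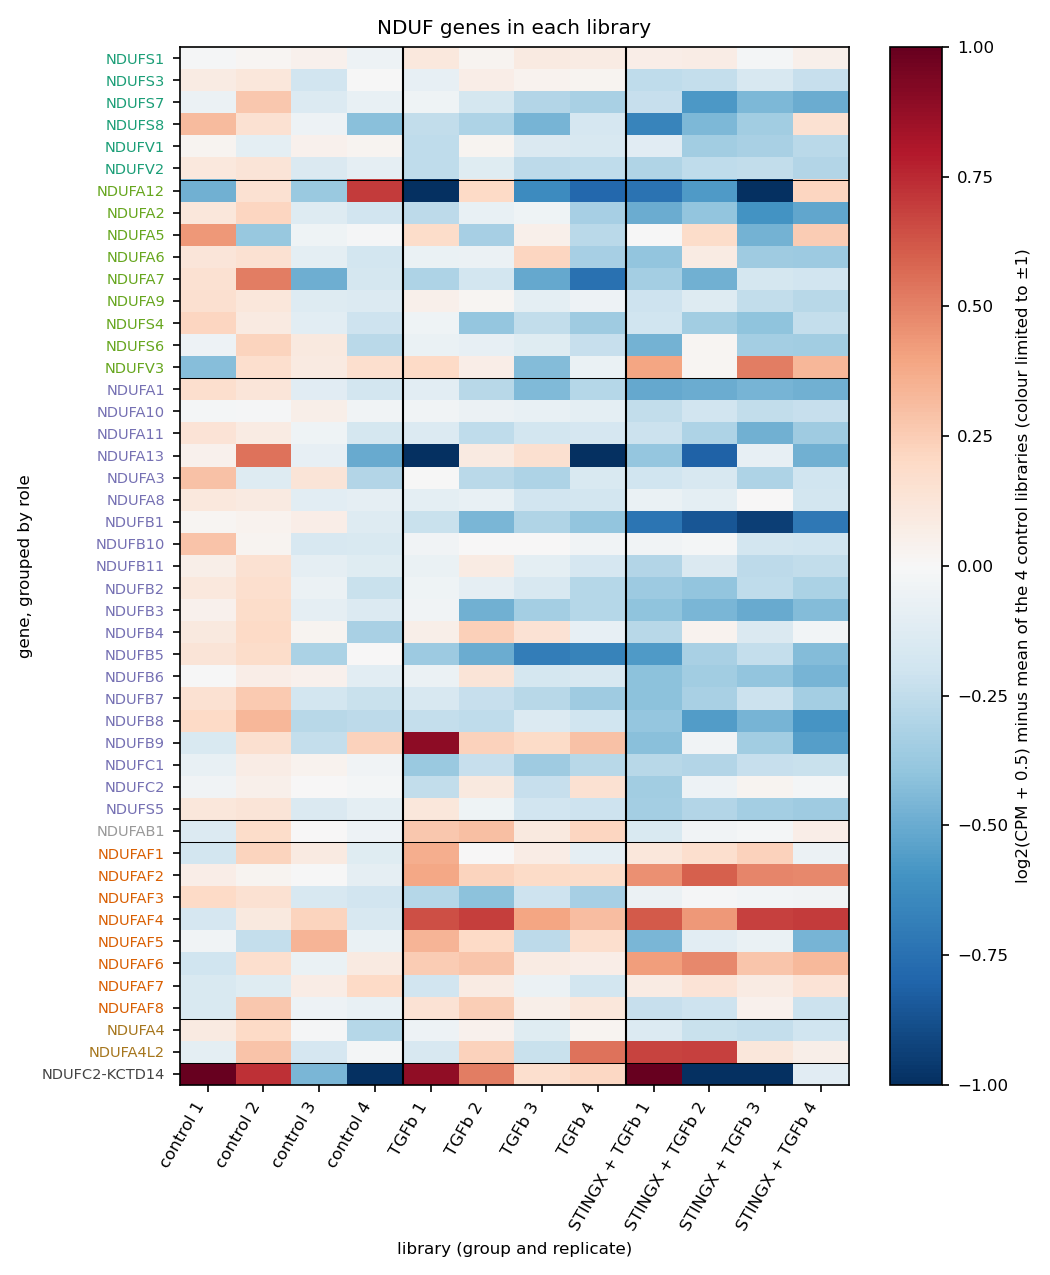
Each of 47 genes (rows, grouped and coloured by role) in each of the 12 libraries (columns), as log2(CPM + 0.5) minus the mean of the 4 control libraries, with blue lower and red higher. Most subunits turn blue from left to right, the assembly factors NDUFAF2, NDUFAF4 and NDUFAF6 turn red, and control libraries 1 and 2 are redder than control libraries 3 and 4.

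The control libraries were not alike for these genes. The summed level of the 48 members was 2336 and 2422 CPM in control libraries 1 and 2 and 2127 and 2058 CPM in control libraries 3 and 4. In all, 27 members were higher in both of the first pair than in both of the second and 1 was lower, where 23.5% of all genes tested were higher and 23.6% lower. In TGFb libraries the same split held for 23 members higher and 1 lower (21.0% and 17.3% of all genes), with sums of 2125, 2126, 2012 and 1980 CPM. With STINGX and TGFb it was 8 higher and 9 lower (18.5% and 15.2% of all genes), with sums of 1879, 1937, 1885 and 1924 CPM. In CPM adjusted by TMM, all 4 sums with STINGX and TGFb lay below all 4 control sums, whereas the TGFb sums overlapped the control sums. As a share of library totals, the members took 0.208 to 0.238% in control. That share was 0.191 to 0.202% with TGFb and 0.197 to 0.203% with STINGX and TGFb, so both treated groups then lay below all controls and overlapped each other. On the per-length scale the groups overlapped, with sums of 3841, 3974, 3901 and 4032 TPM with STINGX and TGFb beside 4343, 4542, 4034 and 3864 TPM in control. Leaving out control libraries 1 and 2, an alternative added after the data were seen, left 1 member higher and 2 lower with TGFb, and 3 higher and 12 lower with STINGX and TGFb against control. All genes gave 2386 higher and 2218 lower, and 2976 higher and 2988 lower, in those fits. Leaving out control libraries 3 and 4 gave 1 higher and 16 lower with TGFb, beside 2652 and 2840 of all genes.

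The 7 core subunits carry the flavin and the iron-sulfur clusters. Of these, 1 fell with TGFb (14.3%), 1 fell between the treated groups (14.3%) and 4 fell between control and STINGX with TGFb (57.1%), where 12.8%, 13.8% and 17.0% of all genes fell. NDUFV2, which holds an iron-sulfur cluster beside the flavin site (ENSG00000178127, chromosome 18, 9102630 to 9134341), had 126, 128, 106 and 109.7 CPM in control libraries 1 to 4, 98.3, 107, 97.6 and 97.9 with TGFb and 95.2, 97.8, 98.4 and 95.5 with STINGX and TGFb. TGFb replicate 2 lay above control replicate 3, and all STINGX with TGFb libraries lay below all controls. It fell with TGFb (log2 fold change -0.23 ± 0.06 (SE), adjusted p = 0.0165) and stood lower with STINGX and TGFb than in control (log2 fold change -0.28 ± 0.06 (SE), adjusted p = 0.00370), but between the treated groups the difference was -0.05 ± 0.06 (adjusted p = 0.589). The call of NDUFV2 with TGFb was lost without any one of control libraries 1 and 2 (adjusted p from 0.0505 to 0.0517). An antisense gene, NDUFV2-AS1, overlaps it, and reads of the 2 strands may not have been kept apart.

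NDUFS7, which carries the last cluster before ubiquinone (ENSG00000115286, chromosome 19, 1383527 to 1395589), had 31.9, 40.02, 30.02 and 31.5 CPM in control, 32.2, 29.2, 26.9 and 26.4 with TGFb and 28.2, 22.1, 24.1 and 23.4 with STINGX and TGFb. Its STINGX with TGFb libraries lay below every control library and overlapped those with TGFb (log2 fold change -0.45 ± 0.11 (SE), adjusted p = 0.00570). NDUFS7 lies opposite AC005329. NDUFV1, which binds NADH and the flavin, had 109, 99.9, 111 and 109 CPM in control and 99.1, 84.2, 85.2 and 88.8 with STINGX and TGFb, without overlap (log2 fold change -0.26 ± 0.07 (SE), adjusted p = 0.00965). NDUFS3, a core subunit without a cluster of its own, kept to 24.8, 27.5, 27.03 and 26.8 CPM with TGFb and had 22.01, 22.2, 23.5 and 22.4 with STINGX and TGFb, again without overlap (log2 fold change -0.24 ± 0.07 (SE), adjusted p = 0.0278). NDUFS3 overlaps PTPMT1 on its own strand, so its counts are uncertain, and this call was lost with library totals alone. It was also lost without any one of TGFb libraries 2, 3 and 4 or STINGX with TGFb libraries 1, 2 and 4 (adjusted p from 0.0616 to 0.0736). The call of NDUFS3 against control was lost without any one of control libraries 1 and 2 or STINGX with TGFb libraries 1, 2 and 4 (adjusted p from 0.0577 to 0.0783). In TPM, NDUFV1 did not fall from control to STINGX with TGFb (171 ± 22.2 and 171 ± 13.9 TPM, SD, n = 4). Nor did NDUFS3 (52.8 ± 3.55 and 53.3 ± 3.36 TPM). NDUFV2 (239 ± 14.7 and 223 ± 3.55 TPM) and NDUFS7 (36.3 ± 8.15 and 31.2 ± 8.34 TPM) had lower means, with overlapping libraries. In the deposited FPKM, also divided by length, the means of NDUFV1 and NDUFS3 were lower with STINGX and TGFb. They went from 17.7 to 15.6 for NDUFV1 and from 6.03 to 5.43 for NDUFS3. TPM is not adjusted by TMM and rests on the division of reads between transcripts. Why TPM and FPKM differ for these genes was not tested.

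NDUFS1 and NDUFS8 passed no comparison. NDUFS1, the largest core subunit, had means of 129 ± 3.68, 136 ± 3.04 and 132 ± 3.93 CPM in the 3 groups (SD, n = 4), and its log2 fold change between STINGX with TGFb and control was 0.04 ± 0.04. NDUFS8 ranged from 52.8 to 87.9 CPM within control alone, which made its difference of -0.32 ± 0.18 no larger than that spread (adjusted p = 0.205).

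**Figure D3:**
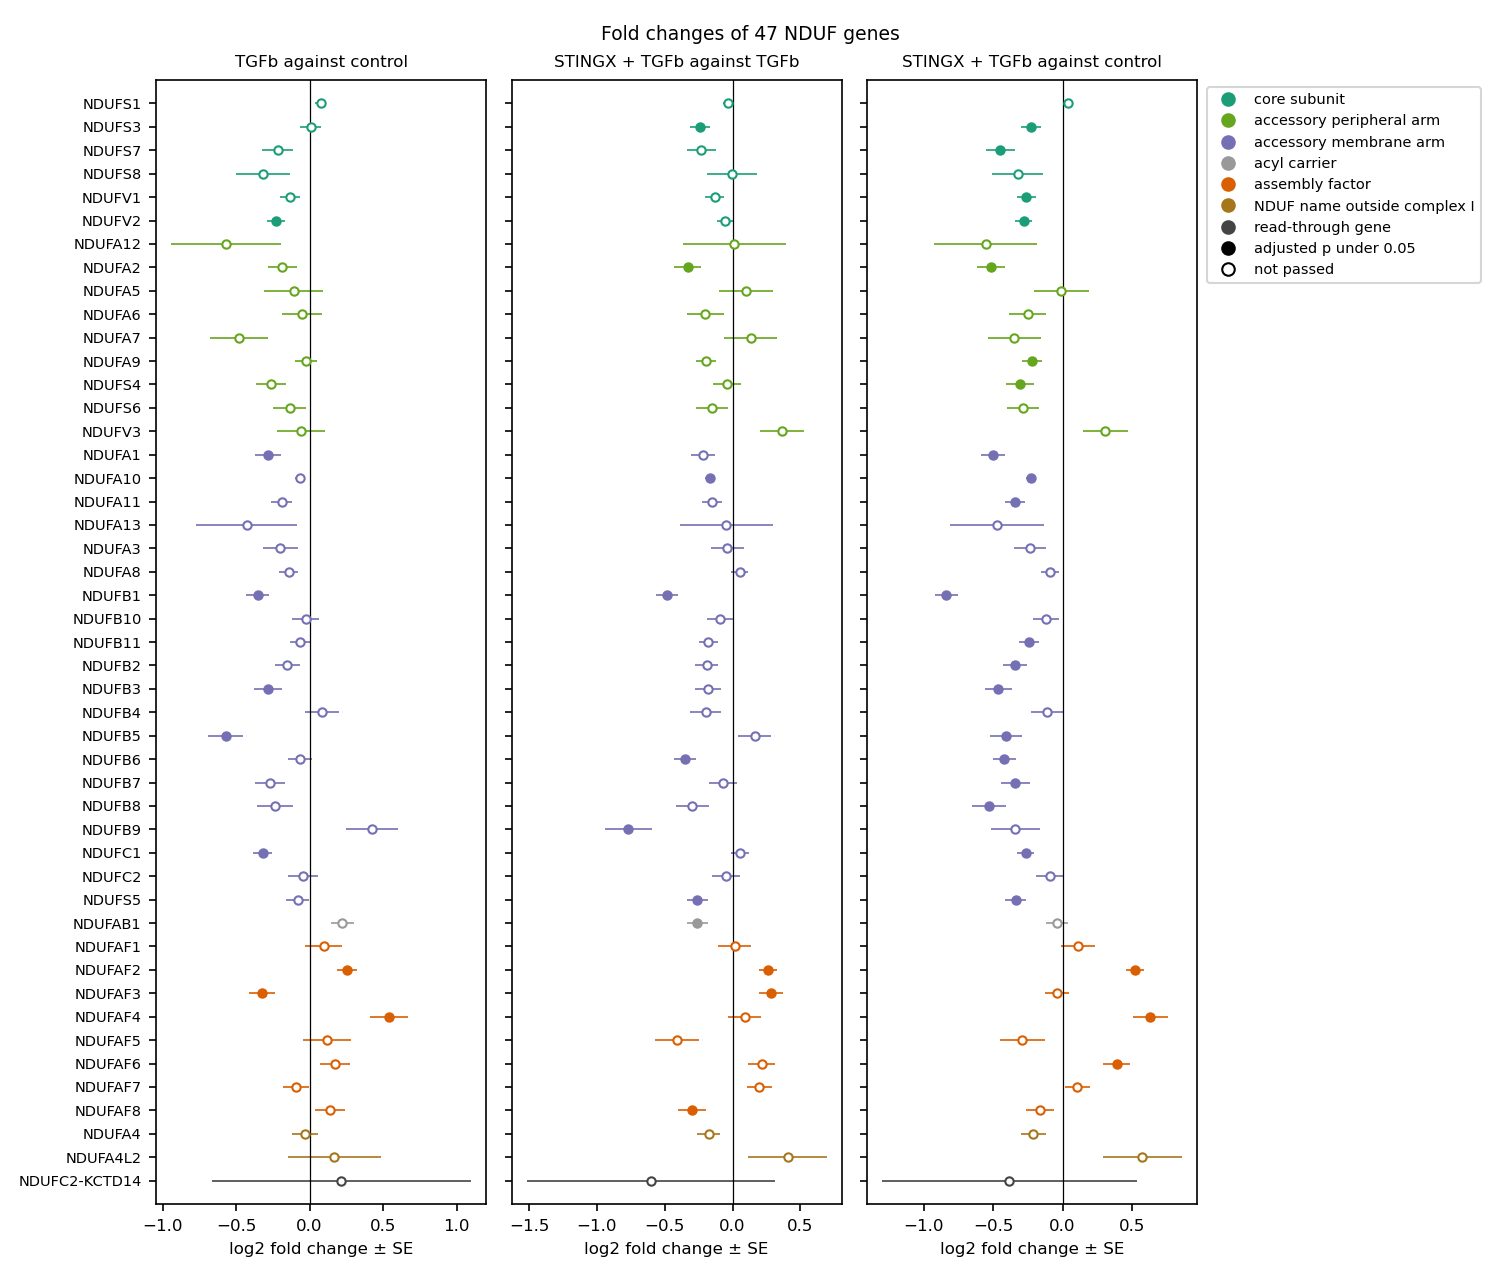
Log2 fold change ± SE of 47 of the 48 genes, grouped and coloured by role, in the 3 comparisons, with filled points for an adjusted p under 0.05 and open points otherwise. In the right panel the filled subunits all lie left of 0, down to -0.84 for NDUFB1, and the filled assembly factors lie right of 0, up to 0.63 for NDUFAF4.

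Among the 9 accessory subunits of the peripheral arm, none passed with TGFb, 1 fell between TGFb and STINGX with TGFb, and 3 fell between control and STINGX with TGFb. The last 2 counts are 11.1% and 33.3% of the 9, where 13.8% and 17.0% of all genes fell and 27.5% and 34.2% passed in either direction. NDUFA2, a subunit with a thioredoxin-like fold (ENSG00000131495, chromosome 5, 140638740 to 140647771), had 48.8, 52.5, 41.2 and 39.5 CPM in control, 37.6, 43.02, 43.8 and 35.8 with TGFb and 31.9, 34.3, 29.7 and 31.4 with STINGX and TGFb. The last 4 libraries lay below all of the others. It fell against TGFb (log2 fold change -0.33 ± 0.10 (SE), adjusted p = 0.0251) and against control (log2 fold change -0.52 ± 0.10 (SE), adjusted p = 0.00133), though it lies opposite the genes IK and TMCO6 and was not called against TGFb with library totals alone. Its call against TGFb was lost without any one of TGFb libraries 2 and 3 or STINGX with TGFb libraries 1, 3 and 4 (adjusted p from 0.0544 to 0.0745). NDUFS4, mutated in Leigh syndrome, and NDUFA9, a subunit with a nucleotide-binding fold, fell only against control, by 0.31 ± 0.10 and 0.22 ± 0.07 on the log2 scale, with overlapping groups (adjusted p = 0.0344 and 0.0334). The call of NDUFS4 was lost without any one of control libraries 1 and 2 or STINGX with TGFb libraries 2, 3 and 4 (adjusted p from 0.0520 to 0.105), and that of NDUFA9 lost without any one of control libraries 1 and 2 or STINGX with TGFb libraries 1, 3 and 4 (adjusted p from 0.0653 to 0.101). NDUFA9 overlaps AC005833 and AC005832 on its own strand. NDUFA12 was too variable to read, with 21.4, 33.5, 23.1 and 49.1 CPM in the control libraries alone.

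NDUFV3, a small subunit beside the flavin module, was also examined by transcript, since 1 of its transcripts passed. It has a short form and a long form that adds exon 3, of 1095 bases (GRCh38, chromosome 21, 42903182 to 42904276, coding throughout). The long transcript has 473 codons and the short one 108. The lines below show the 2 joints of that exon in the long transcript and the single joint of the short one, from the GENCODE 29 transcripts, 5′ to 3′, with exon 3 in capitals.
long form, entry to exon 3: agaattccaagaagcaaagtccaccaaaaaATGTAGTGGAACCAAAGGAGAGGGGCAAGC
long form, exit from exon 3: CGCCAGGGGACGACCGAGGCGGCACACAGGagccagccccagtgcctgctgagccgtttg
short form, exon 3 skipped: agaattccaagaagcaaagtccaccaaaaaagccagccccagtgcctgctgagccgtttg

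Of 293 member transcripts tested, 1 fell with TGFb (of NDUFV2), where 2.33% of all 79677 transcripts passed. Between TGFb and STINGX with TGFb 1 rose (of NDUFV3) and 1 fell (of NDUFA10), where 2.40% passed, and between control and STINGX with TGFb 5 fell (of NDUFA1, NDUFA10, NDUFA13, NDUFA3 and NDUFV2), where 3.45% passed. The long transcript of NDUFV3 (ENST00000354250) had 19.01, 19.5, 17.3 and 20.02 CPM in control, 16.9, 16.4, 16.3 and 13.9 with TGFb and 25.1, 26.7, 25.4 and 24.996 with STINGX and TGFb. All 4 libraries with STINGX and TGFb lay above all 8 others. It rose against TGFb (log2 fold change 0.69 ± 0.12, adjusted p = 0.0104 by edgeR over all transcripts). Its difference from control was 0.43 ± 0.12 (adjusted p = 0.0810) and that of TGFb from control -0.26 ± 0.12 (adjusted p = 0.365).

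The short transcript (ENST00000340344) had 4.97, 19.3, 16.2 and 17.4 CPM in control, 19.6, 17.3, 5.28 and 16.2 with TGFb and 17.8, 5.12, 20.9 and 17.1 with STINGX and TGFb. Each group held 1 library near 5 CPM and 3 libraries well above it, and its log2 fold change against TGFb was 0.06 ± 0.53. The whole gene, at 43.6, 33.6, 47.4 and 41.8 CPM with STINGX and TGFb and 38.1, 34.8, 24.3 and 31.6 with TGFb, did not pass (log2 fold change 0.37 ± 0.16 (SE), adjusted p = 0.124). Whether the forms differ in their change was not tested, and reads shared by both were divided between them by the authors' software.

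**Figure D4:**
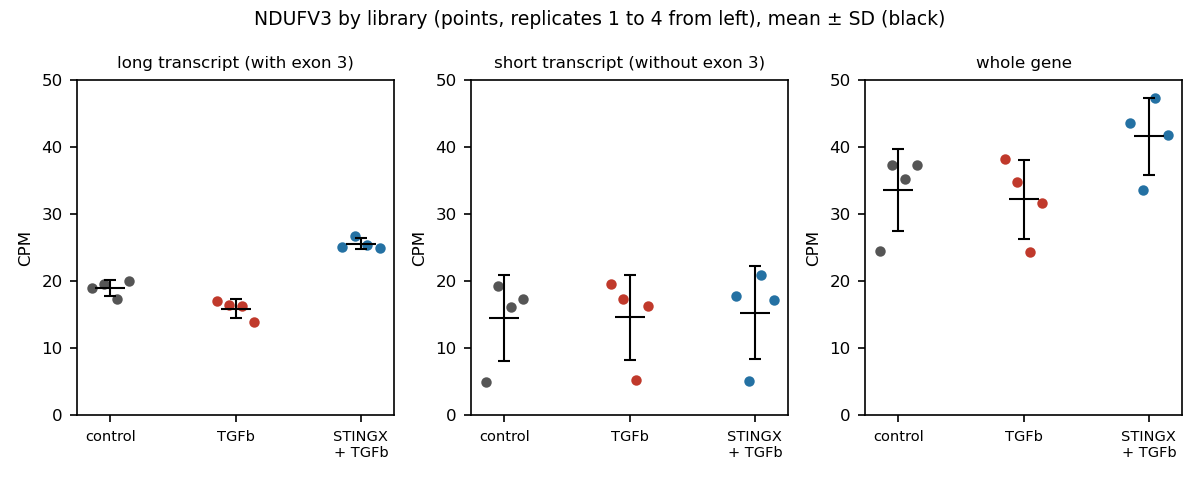
CPM of the long NDUFV3 transcript, the short transcript and the whole gene in each library (points, replicates 1 to 4 from left to right), with mean ± SD of 4 libraries in black. The long transcript lies between 25.0 and 26.7 CPM in all 4 STINGX with TGFb libraries, above every other library, while the short transcript has 1 library near 5 CPM in each group.

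Of the 20 accessory subunits of the membrane arm, 5 fell with TGFb (25.0%), 5 fell between TGFb and STINGX with TGFb (25.0%) and 13 fell between control and STINGX with TGFb (65.0%), and none rose. Of all genes 12.8%, 13.8% and 17.0% fell, and 26.0%, 27.5% and 34.2% passed in either direction, so the first 2 shares lie under the share that passed either way. NDUFB1, a small single-pass membrane subunit (ENSG00000183648, chromosome 14, 92116122 to 92121917), was the one gene that fell in all 3 comparisons. It had 18.7, 18.97, 19.4 and 16.9 CPM in control, 15.7, 13.3, 14.9 and 13.9 with TGFb and 10.96, 9.98, 9.38 and 11.03 with STINGX and TGFb. The 3 groups formed steps without overlap. Its log2 fold changes were -0.35 ± 0.08 with TGFb, -0.48 ± 0.08 from TGFb to STINGX with TGFb, and -0.84 ± 0.08 from control (adjusted p = 0.00598, 8.41e-04 and 5.78e-06), and all 3 calls held in all 27 alternatives.

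NDUFB5 and NDUFC1 fell with TGFb. NDUFB5, a single-pass subunit (ENSG00000136521, chromosome 3, 179604690 to 179627647) had 26.9, 27.98, 19.6 and 24.6 CPM in control and 19.02, 17.3, 14.998 and 15.3 with TGFb, with every TGFb library below every control library (log2 fold change -0.57 ± 0.12 (SE), adjusted p = 0.00345). Its libraries with STINGX and TGFb, at 16.5, 19.5, 20.7 and 18.1 CPM, overlapped both other groups, and it stood below control (log2 fold change -0.41 ± 0.12 (SE), adjusted p = 0.0179), a call lost without any one of control libraries 1 and 2 or STINGX with TGFb library 1 (adjusted p from 0.0510 to 0.0570). NDUFC1, a small subunit, had 15.5, 17.2, 16.7 and 15.9 CPM in control, 12.5, 13.8, 12.6 and 13.3 with TGFb and 13.3, 13.2, 13.8 and 13.9 with STINGX and TGFb. Both treated groups of NDUFC1 lay below all controls (-0.32 ± 0.07 and -0.27 ± 0.06, adjusted p = 0.00288 and 0.00628), though it overlaps MGARP and NAA15.

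NDUFA10, NDUFB6, NDUFS5 and NDUFB9 passed between the treated groups but not with TGFb alone. NDUFA10, a subunit with a nucleoside kinase-like fold (ENSG00000130414, chromosome 2, 239892450 to 240025343), had 131, 132, 138 and 130.0 CPM in control, 130.1, 128, 127 and 124 with TGFb and 112, 116, 112 and 113 with STINGX and TGFb. Control and TGFb overlapped, and the last group lay below both. The fall in CPM was small and tight (log2 fold change -0.16 ± 0.03 (SE), adjusted p = 0.00334) but was not called with library totals alone. In TPM there was no fall. NDUFA10 had 64.3 ± 4.27 TPM in control, 62.8 ± 2.32 with TGFb and 64.7 ± 2.31 with STINGX and TGFb (SD, n = 4). The deposited FPKM, also divided by length, was 11.8 ± 0.496, 10.8 ± 0.121 and 10.6 ± 0.149 in the same order. TPM is not adjusted by TMM and rests on the division of reads between transcripts. Why the measures differ was not tested. Its transcript ENST00000252711 fell further, from 55.7, 54.95, 49.4 and 48.7 CPM with TGFb to 33.3, 39.3, 31.9 and 35.5 (log2 fold change -0.58 ± 0.10, adjusted p = 0.0127 over all transcripts). It held 40.0 to 43.5% of the gene's transcript counts with TGFb and 28.4 to 33.2% with STINGX and TGFb.

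NDUFB6, a single-pass subunit, had 15.5, 17.7, 14.3 and 14.4 CPM with TGFb and 12.1, 12.6, 12.2 and 11.6 with STINGX and TGFb, without overlap (log2 fold change -0.35 ± 0.08 (SE), adjusted p = 0.00568). NDUFS5, the most abundant member per length, had 126, 113, 102 and 100.4 CPM with TGFb and 91.5, 94.8, 91.5 and 90.5 with STINGX and TGFb, also without overlap (log2 fold change -0.26 ± 0.08 (SE), adjusted p = 0.0277). NDUFB6 lies opposite SMIM27 and overlaps DFFBP1. Neither was called on library totals alone, and the call of NDUFS5 was lost without any one of TGFb libraries 1 and 2 or STINGX with TGFb libraries 1, 3 and 4 (adjusted p from 0.0610 to 0.0853).

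NDUFB9, a LYR-motif subunit that anchors an acyl carrier on the membrane arm (ENSG00000147684, chromosome 8, 124539101 to 124580648), gave the largest single change between the treated groups. It had 33.98, 42.4, 32.1 and 44.6 CPM in control, 70.8, 44.6, 43.5 and 46.5 with TGFb and 28.2, 37.04, 29.7 and 25.8 with STINGX and TGFb. TGFb replicate 1 stood far above the rest, and the other TGFb libraries were still above all 4 with STINGX and TGFb. It fell against TGFb (log2 fold change -0.77 ± 0.18 (SE), adjusted p = 0.00655), with log2 fold changes from -0.88 to -0.54 over 27 alternatives, all of them called. Its difference from control did not pass (-0.34 ± 0.18, adjusted p = 0.164), and it lies opposite TATDN1 and MTSS1.

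The remaining membrane-arm falls between control and STINGX with TGFb were graded. NDUFB8 fell by 0.53 ± 0.12 on the log2 scale, NDUFA1 by 0.50 ± 0.09, NDUFB3 by 0.46 ± 0.10, NDUFA11 by 0.34 ± 0.07, NDUFB2 by 0.34 ± 0.08, NDUFB7 by 0.34 ± 0.10 and NDUFB11 by 0.24 ± 0.07 (adjusted p from 6.72e-04 for NDUFA1 to 0.0220 for NDUFB7). The call of NDUFB7 was lost without any one of control libraries 1 and 2 or STINGX with TGFb library 1 (adjusted p from 0.0617 to 0.0649), and that of NDUFB11 lost without any one of control library 2 or STINGX with TGFb library 1 (adjusted p from 0.0551 to 0.0573). NDUFA1, an X-linked subunit of the arm's proximal end, had 59.3, 57.3, 48.6 and 46.3 CPM in control, 48.8, 43.3, 38.6 and 43.1 with TGFb and 36.8, 37.2, 37.9 and 37.6 with STINGX and TGFb. The last group was tight and lay below all others, and NDUFA1 had also fallen with TGFb (log2 fold change -0.28 ± 0.09 (SE), adjusted p = 0.0303), a call lost without any one of control libraries 1 and 2 or TGFb libraries 2, 3 and 4 (adjusted p from 0.0646 to 0.0905). NDUFB3, likewise, fell with TGFb (log2 fold change -0.28 ± 0.10 (SE), adjusted p = 0.0464), a call lost in 12 of 27 alternatives and lost without any one of control libraries 1 and 2 or TGFb libraries 2, 3 and 4 or STINGX with TGFb libraries 1, 2, 3 and 4 (adjusted p from 0.0594 to 0.132). NDUFB8 had 83.4, 91.5, 59.9 and 60.5 CPM in control, so its fall rested most on control libraries 1 and 2. Without them the fall was -0.24 on the log2 scale and still called. NDUFB8, NDUFA11 and NDUFB2 overlap AL133352, AC024592 and ADCK2 in turn on their own strand. NDUFB8, NDUFB2 and NDUFB3 lie opposite HIF1AN, BRAF and FAM126B in turn, so the counts of these genes are uncertain.

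NDUFAB1, the mitochondrial acyl carrier protein that sits in both arms and also serves lipoate and iron-sulfur synthesis (ENSG00000004779, chromosome 16, 23581014 to 23596316), had 24.4, 30.6, 26.8 and 25.9 CPM in control, 32.4, 33.1, 28.8 and 31.2 with TGFb and 24.1, 26.2, 26.4 and 28.1 with STINGX and TGFb. The TGFb libraries lay above all 4 with STINGX and TGFb (log2 fold change -0.26 ± 0.08 (SE), adjusted p = 0.0273) and overlapped those of control (log2 fold change 0.22 ± 0.08 (SE), adjusted p = 0.0577). The fall was not called on library totals alone and was lost without any one of TGFb libraries 1, 2 and 4 or STINGX with TGFb libraries 1, 2 and 3 (adjusted p from 0.0535 to 0.0833).

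The 8 assembly factors included all members that rose, and 3 of them (37.5%) passed in each comparison, where 26.0%, 27.5% and 34.2% of all genes did. NDUFAF2, a chaperone related to the subunit NDUFA12 that acts late in assembly (ENSG00000164182, chromosome 5, 60945205 to 61153026), had 19.3, 18.8, 18.4 and 17.3 CPM in control, 24.3, 21.7, 21.1 and 21.04 with TGFb and 25.5, 28.2, 26.05 and 25.98 with STINGX and TGFb. The 3 groups formed rising steps without overlap. It rose with TGFb (log2 fold change 0.26 ± 0.07 (SE), adjusted p = 0.0129), again with STINGX (log2 fold change 0.26 ± 0.07 (SE), adjusted p = 0.00967), and overall from control (log2 fold change 0.52 ± 0.07 (SE), adjusted p = 5.32e-05). The call between the treated groups and that from control held in all 27 alternatives.

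NDUFAF4, which acts early in building the ubiquinone module (ENSG00000123545, chromosome 6, 96889315 to 96897891), had 6.22, 7.58, 8.31 and 6.25 CPM in control, 11.3, 11.7, 9.39 and 8.83 with TGFb and 11.01, 9.67, 11.6 and 11.8 with STINGX and TGFb. Both treated groups lay above all controls and overlapped each other. It rose with TGFb (log2 fold change 0.54 ± 0.13 (SE), adjusted p = 0.00711) and with STINGX and TGFb against control (log2 fold change 0.63 ± 0.13 (SE), adjusted p = 0.00177), and between the treated groups the difference was 0.09 ± 0.12 (adjusted p = 0.646). Its partner NDUFAF3 moved otherwise, at 49.7, 48.3, 38.8 and 37.8 CPM in control, 35.4, 32.4, 37.5 and 34.2 with TGFb and 41.6, 43.01, 42.5 and 42.3 with STINGX and TGFb. All TGFb libraries lay below all others, so NDUFAF3 fell with TGFb (log2 fold change -0.32 ± 0.09 (SE), adjusted p = 0.0169) and rose from there with STINGX (log2 fold change 0.28 ± 0.09 (SE), adjusted p = 0.0325), ending at -0.04 ± 0.09 from control. The rise of NDUFAF3 was lost without any one of TGFb libraries 1, 2 and 4 or STINGX with TGFb libraries 1, 2, 3 and 4 (adjusted p from 0.0569 to 0.0898), and its fall lost without any one of control libraries 1 and 2 or TGFb library 2 (adjusted p from 0.0511 to 0.0527). The fall of NDUFAF3 with TGFb was not called without control libraries 1 and 2, and the gene lies opposite DALRD3.

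NDUFAF6, needed for making the MT-ND1 protein (ENSG00000156170, chromosome 8, 94895767 to 95103457), had 7.54, 9.88, 8.32 and 9.32 CPM in control, 10.5, 10.7, 9.26 and 9.15 with TGFb and 11.8, 12.4, 10.7 and 11.02 with STINGX and TGFb. It stood above control in all 4 of the last libraries (log2 fold change 0.39 ± 0.10 (SE), adjusted p = 0.00869), and it lies opposite CCNE2 and TP53INP1. NDUFAF8 fell between the treated groups, from 19.4, 20.97, 18.3 and 18.98 to 14.9, 15.2, 18.1 and 15.03 CPM (log2 fold change -0.30 ± 0.10 (SE), adjusted p = 0.0450), a call that held in 11 of 27 alternatives and was lost without any one of control libraries 3 and 4 or TGFb libraries 1, 2, 3 and 4 or STINGX with TGFb libraries 1, 2 and 4 (adjusted p from 0.0523 to 0.119). NDUFAF5, the hydroxylase of NDUFS7 that works with NDUFAF8, had a log2 fold change of -0.41 ± 0.16 in the same comparison and did not pass (adjusted p = 0.0853). NDUFAF7, a methyltransferase, was at 0.20 ± 0.09 (adjusted p = 0.135), and NDUFAF1 at 0.02 ± 0.12 (adjusted p = 0.945). NDUFAF6 and NDUFAF7 were called higher against TGFb on library totals alone, and NDUFAF8 was not called.

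**Figure D5:**
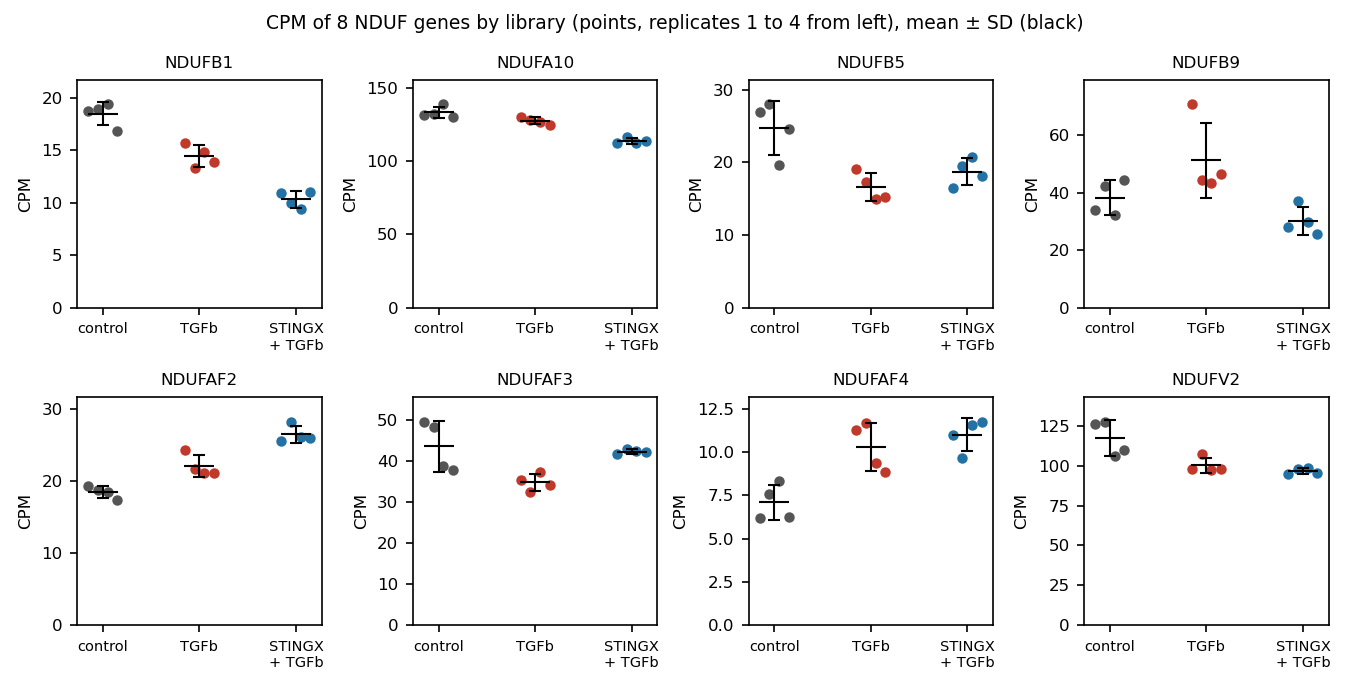
CPM of 8 members in each library (points, replicates 1 to 4 from left to right), with mean ± SD of 4 libraries in black and axes starting at 0. NDUFB1 steps down from 18.7, 19.0, 19.4 and 16.9 CPM in control, NDUFAF2 steps up to between 25.5 and 28.2 CPM, and NDUFAF3 is lowest with TGFb.

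Promoters are shown for 2 assembly factors that rose and 2 membrane-arm subunits that fell between control and STINGX with TGFb, to let the sequences be compared. They are 4 of the 9 called members whose RefSeq start lay within 10 bases of the deposited one, and were chosen because they hold a match to a motif searched. The other 5, the fallen NDUFA10, NDUFC1, NDUFS4, NDUFB8 and NDUFA11, held none. Each line is the 250 bases before the RefSeq start (GRCh38.p14), 5′ to 3′ on the gene's strand, for NDUFAF2 (chr5:60944955-60945204, plus strand), NDUFAF4 (chr6:96897892-96898141, minus strand), NDUFA1 (chrX:119871582-119871831, plus strand) and NDUFB7 (chr19:14572067-14572316, minus strand). Capitals mark matches to CCAAT, to the ETS core CCGGAAG or to CGCATGC, on either strand.
NDUFAF2: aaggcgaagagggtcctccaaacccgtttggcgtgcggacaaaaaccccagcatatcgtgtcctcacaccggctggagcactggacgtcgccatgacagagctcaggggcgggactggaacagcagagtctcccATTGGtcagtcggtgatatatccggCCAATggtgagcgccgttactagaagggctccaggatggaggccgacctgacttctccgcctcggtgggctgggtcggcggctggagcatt
NDUFAF4: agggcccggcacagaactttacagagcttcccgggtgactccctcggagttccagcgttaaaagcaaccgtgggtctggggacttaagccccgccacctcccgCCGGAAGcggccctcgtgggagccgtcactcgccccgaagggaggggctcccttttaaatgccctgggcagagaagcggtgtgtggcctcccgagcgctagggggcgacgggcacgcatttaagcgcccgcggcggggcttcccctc
NDUFA1: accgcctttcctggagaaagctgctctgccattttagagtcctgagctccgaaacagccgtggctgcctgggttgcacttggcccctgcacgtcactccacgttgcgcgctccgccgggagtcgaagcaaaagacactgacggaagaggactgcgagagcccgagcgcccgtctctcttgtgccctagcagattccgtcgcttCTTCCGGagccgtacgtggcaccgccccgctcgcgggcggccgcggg
NDUFB7: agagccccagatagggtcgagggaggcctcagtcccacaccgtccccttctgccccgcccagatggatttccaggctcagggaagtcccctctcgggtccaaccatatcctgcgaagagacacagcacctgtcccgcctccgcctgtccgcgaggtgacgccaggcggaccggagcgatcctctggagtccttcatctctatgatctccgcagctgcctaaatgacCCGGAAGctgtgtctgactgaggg

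RefSeq promoters were matched for 40 of the 48 members. The ETS core CCGGAAG, which GABPA, a known activator of respiratory genes, can bind, was found on either strand in 7 of the 40 (17.5%) beside 10.2% of all 27305 genes. Between control and STINGX with TGFb, it was in 1 of the 2 matched members that rose (NDUFAF4), 3 of the 18 that fell (NDUFA1, NDUFB7 and NDUFS3) and 3 of the 20 that did not pass. CCAAT was found in 11 of 40 (27.5%, beside 37.0% of all genes): 1 of the 2 that rose, 3 of the 18 that fell and 7 of the 20 that did not pass. The letters CGCATGC, from the core of the site of NRF1, another activator of respiratory genes, were found in 5 of 40 (12.5%, beside 4.16%): NDUFA5, NDUFA6, NDUFB4, NDUFS6 and NDUFS7. The motifs were searched on both strands and do not share letters in the lines shown, and a match describes the letters alone.

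The pair named NDUF outside complex I passed no comparison. NDUFA4, a subunit of complex IV, had 55.99, 60.4, 52.1 and 43.03 CPM in control, 50.8, 54.2, 48.2 and 53.6 with TGFb and 47.7, 44.9, 44.5 and 45.7 with STINGX and TGFb (log2 fold change -0.21 ± 0.09 (SE), adjusted p = 0.0840). NDUFA4L2, its paralog known from hypoxia, was scarce, at 0.943, 1.38, 0.873 and 1.02 CPM in control and 1.96, 1.97, 1.17 and 1.11 with STINGX and TGFb (log2 fold change 0.57 ± 0.28 (SE), adjusted p = 0.145), and the groups overlapped. NDUFC2-KCTD14, which shares exons with NDUFC2, went from 0.0445 to 3.08 CPM within control, and its values are not read.

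The mitochondrially encoded core of the membrane arm is given beside the nuclear genes. Of the 7 MT-ND genes, 3 fell with TGFb, 6 fell from TGFb to STINGX with TGFb, and all 7 fell between control and STINGX with TGFb, with log2 fold changes there from -0.49 (MT-ND3) to -0.13 (MT-ND5). Of all genes tested, 12.8%, 13.8% and 17.0% fell in these comparisons. With library totals alone 5, 4 and 6 of the 7 fell, beside 3523, 1890 and 2876 of all 21328 genes. Whether the 7 moved independently of each other was not tested. Mitochondrially encoded genes as a whole took 10.0 to 11.3% of counts in control, 8.77 to 9.46% with TGFb and 8.16 to 8.46% with STINGX and TGFb.

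Of 10 assembly factors without an NDUF name, ECSIT, a partner of NDUFAF1, fell between TGFb and STINGX with TGFb. It went from 18.6 ± 2.46 to 11.2 ± 1.14 CPM (log2 fold change -0.73 ± 0.16 (SE), adjusted p = 0.00406). With STINGX and TGFb it also stood below control (-0.63 ± 0.16, adjusted p = 0.00807). Between control and STINGX with TGFb, ACAD9 fell by 0.17 ± 0.05 and NUBPL, which delivers iron-sulfur clusters to complex I, rose by 0.29 ± 0.09. The other 7 did not pass there, and none of the 10 passed with TGFb alone. Of all genes tested, 26.0% passed in either direction with TGFb. The share was 27.5% between the treated groups and 34.2% between control and STINGX with TGFb.

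The other respiratory complexes are given for scale. Of 42 nuclear genes of complexes II to V, 10 fell with TGFb, 20 fell from TGFb to STINGX with TGFb and 33 fell between control and STINGX with TGFb, and none rose in these comparisons. The falls were 23.8%, 47.6% and 78.6% of the 42, where 12.8%, 13.8% and 17.0% of all genes fell. Scaled by library totals alone, 21, 12 (and 1 higher) and 29 were called. Of all 21328 genes tested, 3523, 1890 and 2876 fell on that scaling. The medians of the 42 were -0.16, -0.24 and -0.41, beside -0.15, -0.15 and -0.29 for the 37 complex I subunits. The sets are not alike. The 42 include the complex II assembly factors SDHAF1 to SDHAF4 and a chosen list of 10 complex IV subunits, while the 37 hold no assembly factor. The largest changes from control were those of the complex IV subunits COX8A (-1.01 ± 0.08, adjusted p = 1.14e-06) and COX6A1 (-0.72 ± 0.08, adjusted p = 1.91e-05), SDHA of complex II (-0.75 ± 0.05, adjusted p = 7.48e-08) and UQCR10 of complex III (-0.71 ± 0.07, adjusted p = 5.08e-06). Whether complex I fell less than the others was not tested.

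Regulators of respiratory genes moved both ways. With TGFb, EPAS1, the hypoxia factor HIF-2 alpha, fell from 589 ± 16.9 to 217 ± 6.50 CPM (log2 fold change -1.44 ± 0.04 (SE), adjusted p = 2.33e-11) and stood at 284 ± 8.57 with STINGX and TGFb. PPARGC1A, the coactivator PGC-1 alpha, was scarce throughout, at 1.11 ± 0.405 CPM in control and 0.0720 ± 0.0998 with TGFb, where it fell (adjusted p = 5.36e-04). Its relatives PPRC1 (log2 fold change 0.54 ± 0.07 (SE), adjusted p = 5.20e-05) and PPARGC1B (log2 fold change 0.66 ± 0.22 (SE), adjusted p = 0.0400) rose. Of the 14 regulators, 5 rose and 3 fell with TGFb, 2 rose between the treated groups, and 4 rose and 3 fell between control and STINGX with TGFb. Of all genes tested, 13.2% rose and 12.8% fell with TGFb, and 13.7% rose between the treated groups. Between control and STINGX with TGFb, 17.2% rose and 17.0% fell. By library totals alone 2 regulators rose and 3 fell with TGFb, beside 2224 and 3523 of all 21328 genes.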

How the data were processed

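Polyadenylated RNA of 12 LX2 libraries was sequenced. The submitters' processing notes name cutadapt, HISAT2, StringTie, edgeR and the build GRCh38. What each did, its settings and any use of strand: not given in the sources used here. Whole-number estimated counts of genes and transcripts, and FPKM values of genes, were deposited by the authors. The deposited FPKM was checked to divide by the union of exons for 94.1% of 10454 genes with several transcripts, within 10%. No value column was without a sample.

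Tests ran on the estimated counts of all genes, with edgeR 4.0.16 under R 4.3.3 (filterByExpr with a minimum count of 10 and a minimum total of 15, TMM, robust quasi-likelihood F test over 12 libraries, 9 residual degrees of freedom), with Benjamini-Hochberg adjustment over all genes and a threshold of 0.05. Transcripts were tested likewise. Each SE was derived from the log2 change and its F statistic. TPM used transcript lengths of GENCODE 29, which covered at least 98.0% of counts. One count equals 0.0141 to 0.0185 CPM. The script was tested on simulated data. The members and lists were chosen with earlier results of these data known. Genes with full values are members past the threshold, at most the 8 largest changes in each comparison, the core subunits, NDUFA4 and NDUFA4L2, the 3 highest and 3 lowest by FPKM, and, of other lists, up to 4 genes past the threshold with a log2 change of at least 0.5. One member counted in the totals is not reported singly here. ACAD9, NUBPL and single transcripts were named after their values were seen. Alternatives were other scalings, filters, tools and pseudocounts, groups, the replicate number as a block, and libraries left out. In the alternative on log2(FPKM + pseudocount), limma 3.58.1 was used, and DESeq2 1.42.0 on counts.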

Additional observations from a re-analysis of the deposited data

Results flagged for a closer look

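In each of the 3 groups of 4 libraries, 1 library was set against the other 3 for every member (by Dixon's criterion). Of 144 sets, 6 held a library that stood apart, where chance alone gives about 1 in 20. NDUFB9 stood at 70.8 CPM in TGFb replicate 1, with 43.5 to 46.5 CPM in the other TGFb libraries. NDUFV2, a core subunit, stood at 107 CPM in TGFb replicate 2, with 97.6 to 98.3 CPM in the others. NDUFV1, the flavin-binding subunit, was low in control replicate 2, at 99.9 CPM beside 109 to 111 CPM. NDUFV3 was low in control replicate 1, at 24.5 CPM beside 35.2 to 37.3 CPM, the library in which its short transcript was near 5 CPM. NDUFA6, a LYR-motif subunit of the peripheral arm, stood at 36.1 CPM in STINGX with TGFb replicate 2, with 25.9 to 26.6 CPM in the others. NDUFAF8 stood at 18.1 CPM in STINGX with TGFb replicate 3, with 14.9 to 15.2 CPM in the others.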

How the results depend on the processing

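No member's log2 fold change was called in both directions under any of the 27 alternatives. Over all members, comparisons and alternatives, 3612 values kept their side of the threshold, 159 lost the call and 117 gained it, and 2 of 9, 3 of 11 and 14 of 23 calls held in every alternative (TGFb against control, STINGX with TGFb against TGFb, STINGX with TGFb against control).

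TGFb against control gave 13 lower calls with upper quartile scaling, library totals alone and each FPKM setting. All genes gave 3207 lower calls with upper quartile scaling and 3523 with library totals alone. They gave 3469 on log2(FPKM + 1), 3477 on log2(FPKM + 0.1) and 2919 without a filter on FPKM. STINGX with TGFb against TGFb gave 8 higher and 2 lower with library totals alone, 8 higher and 3 lower on log2(FPKM + 1) and log2(FPKM + 0.1), 6 higher and 2 lower without a filter on FPKM, and 14 lower with only the 2 groups fitted. All genes gave 4997 higher and 1890 lower with library totals, and 4918 and 1907 on log2(FPKM + 1). They gave 4865 and 1905 on log2(FPKM + 0.1), 4200 and 1695 without the filter, and 3057 lower with only the 2 groups fitted. The members' median was 0.0280 with library totals, 0.0231 on log2(FPKM + 1), 0.0239 on log2(FPKM + 0.1) and 0.0231 without the filter. STINGX with TGFb against control gave 13 lower on log2(FPKM + 0.1) and without the filter, and medians of -0.15 on log2(FPKM + 1) with and without it. All genes gave 2798 lower on log2(FPKM + 0.1) and 2491 without the filter. The cause of these shifts was not tested, beyond the move of the median of all genes to 0.15.

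Without control libraries 1 and 2, TGFb gave 1 higher and 2 lower, and STINGX with TGFb against control 12 lower with a median of -0.12. Without control libraries 3 and 4 these were 1 higher and 16 lower (median -0.21) for TGFb, 14 lower for STINGX with TGFb against TGFb, and a median of -0.36 against control. Without libraries 1 and 2, all genes gave 2386 higher and 2218 lower with TGFb, and 2988 lower with STINGX and TGFb against control. Without libraries 3 and 4 they gave 2652 higher and 2840 lower with TGFb, and 3267 lower between the treated groups. Both alternatives were chosen after the data were seen.

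Leaving out 1 library at a time gave 2 to 3 higher and 3 to 11 lower with TGFb (3 without control replicate 1 or 2, 4 without TGFb replicate 2, 11 without control replicate 4; median -0.15 to -0.08). STINGX with TGFb against TGFb gave 1 to 2 higher and 4 to 10 lower (4 without TGFb replicate 2 or STINGX with TGFb replicate 1, 5 without its replicate 4; median -0.14 to -0.09). NDUFAF2 was called higher in each of the 12, and NDUFAF3 in 5 of them. Against control it gave 3 higher and 14 to 23 lower (median -0.28 to -0.20). In these fits all genes gave 2492 to 2711 higher and 2352 to 2642 lower with TGFb. They gave 2487 to 2941 and 2548 to 2976 between the treated groups, and 3240 to 3654 and 3178 to 3582 for STINGX with TGFb against control.

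Over all 21328 genes tested, same-numbered libraries did not deviate together (correlations from -0.04 to 0.05 over 12 pairs). Of the 12 libraries, 2 correlated best with their own number. These correlations do not describe the members alone. Among the members, libraries 1 and 2 stood above 3 and 4 for 27 in control and 23 with TGFb (1 below in each). With STINGX and TGFb these were 8 above and 9 below. Of all genes, 23.5%, 21.0% and 18.5% stood above and 23.6%, 17.3% and 15.2% below in control, TGFb and STINGX with TGFb. A shift of the members shared by replicate number was not tested. With the replicate block 2 rose and 7 fell, 1 rose and 9 fell, and 3 rose and 20 fell. The smallest log2 change called among the members was -0.16, of NDUFA10, and whether depth set that limit was not tested.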
